A study of Homo sapiens with 12 samples.

Results

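The interferon-stimulated genes described here are 39 named genes that cells switch on in response to interferon, read from mRNA libraries of LNCaP and 22Rv1 prostate cancer cells. The members were given as a list of gene symbols, and all 39 were found once among the 60660 genes of each library table. LNCaP responds to androgen and was grown from a metastasis in a lymph node. 22Rv1 was derived from a prostate xenograft that had relapsed after castration of its host. Both lines were transfected with lipofectamine-3000 and kept in androgen-deprived medium with 10% charcoal-stripped serum. Within each line, 3 libraries came from cells given a negative control oligo (NC-mimic) and 3 from cells given a mimic of the piRNA piR-4447944, a synthetic RNA oligo that carries a monophosphate and a 2′ O-methoxy modification. All 4 groups therefore received an RNA oligo, and untransfected cells were not analysed here. Each line is a single cell line, and the labels do not say whether the 3 libraries of a group came from separate cultures, so the p-values measure only the spread between these libraries. In these bulk libraries, fewer cells that express a gene and less RNA per cell cannot be told apart.

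Interferons are secreted when a cell senses foreign nucleic acid. Type I and type III interferons bind receptors that activate the kinases JAK1 and TYK2, and phosphorylated STAT2 joins IRF9 in a complex called ISGF3. ISGF3 binds a short DNA element, the interferon-stimulated response element, in the promoters of its target genes. A different element, the gamma-activated site, serves the response to type II interferon. The products of these genes detect, bind or trap viral components, and many are also present at a low level in cells that have seen no virus.

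The response element is shown first because it is the feature that ties the members together in DNA. Promoter windows of 300 bases, from 250 before to 50 after a gene's start, were available from RefSeq (GRCh38.p14) for 33 of the 39 members. GAAA, any 2 bases and GAAA again, searched on both strands, occurred in 24 of these 33 genes (72.7%) against 4.38% of 27305 genes with a window. The gamma-activated site, read as TTC, any 3 bases and GAA, occurred in 11 of the 33 genes (33.3%) against 9.38% of all. The letters are a description of the sequence and not of binding. USP18, IRF7, TRIM22, MX2, IFIT2 and IFITM2 were not matched. The sites below are from members whose levels carry the results, with the motif in capitals and 10 bases on each side, read along the strand of the gene.
ISG15: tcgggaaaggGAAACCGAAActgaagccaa
IFI6: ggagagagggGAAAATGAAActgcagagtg
BST2: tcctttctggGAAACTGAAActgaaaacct
HERC5: aaacattatgTTTCGTTTTCcactggagct
IFITM3: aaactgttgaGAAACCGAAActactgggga
IFIT1: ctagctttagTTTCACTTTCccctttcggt
IFIT3: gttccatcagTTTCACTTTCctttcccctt
IFI44: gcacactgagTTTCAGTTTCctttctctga
SAMD9: tctgagaaatGAAACTGAAAccaaacctat
LGALS3BP: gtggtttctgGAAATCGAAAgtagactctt
PLSCR1: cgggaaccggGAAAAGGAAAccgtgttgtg
DTX3L: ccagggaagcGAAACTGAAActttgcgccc

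The ISG15 site lay at chr1:1013380-1013409, with its first motif base 107 bases before the gene start, and it overlapped a second match of the motif 6 bases upstream. The IFI6 site (chr1:27672288-27672317) was the middle of 3 matches in that promoter. The BST2 site was at chr19:17405741-17405770, the HERC5 site at chr4:88457035-88457064 and the IFITM3 site at chr11:320876-320905. The IFIT1 and IFIT3 sites, at chr10:89392497-89392526 and chr10:89332468-89332497, held the same motif letters in capitals and read in the reverse direction. The IFI44 site was at chr1:78649761-78649790, the SAMD9 site at chr7:93118096-93118125, the LGALS3BP site at chr17:78979962-78979991 and the PLSCR1 site at chr3:146544667-146544696. The DTX3L site, at chr3:122564322-122564351, lay where the starts of DTX3L and PARP9, which are read in opposite directions, overlap, and it was also the only match of PARP9. Members also clustered along the chromosomes: IFIT2, IFIT3, IFIT1 and IFIT5 lay side by side at chr10:89283694-89421605, and IFITM2, IFITM1 and IFITM3 at chr11:303655-329475 (GENCODE v44, hg38).

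The libraries held between 12161091 and 22179601 expected counts. The identity of the cells was checked on markers: all 9 markers of prostate cancer lines reached a TPM (transcripts scaled to a fixed library total after correction for length) of 1 or more in some library of every group, while 11 immune markers summed to between 1.61 and 10.4 TPM per library and 11 stromal, endothelial and basal markers to between 7.83 and 46.2 TPM. Replicate 3 of each 22Rv1 group stood apart. The chi-square per gene between replicates, a measure of how far 2 libraries differ beyond counting noise, was 41.33 to 117.83 for the pairs with replicate 3 and 7.55 to 8.81 for the pairs without it in 22Rv1. In the 22Rv1 NC-mimic group, 8 of 28 members with at least 1 CPM (counts scaled to a fixed library total) in some library were more than 2 times higher in replicate 3 than in both other replicates, against 8.87% of all genes. They were BST2, UBE2L6, IFI6, MX2, HERC5, MX1, IFIT1 and IFITM1. In the 22Rv1 mimic group the first 4 of these did the same, 4 of 28 members against 11.7% of all genes. In the other direction, PARP9 and DTX3L were under 0.5 times both other replicates in replicate 3 with NC-mimic, 2 of 28 members against 4.69% of genes. With the mimic RSAD2, CMPK2, HERC6, DTX3L and IFITM1 were, 5 of 28 members against 7.42% of genes. Results of the members that rest on these libraries are given with and without them, and the part of replicate 3 in each was not tested further.

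**Figure D1:**
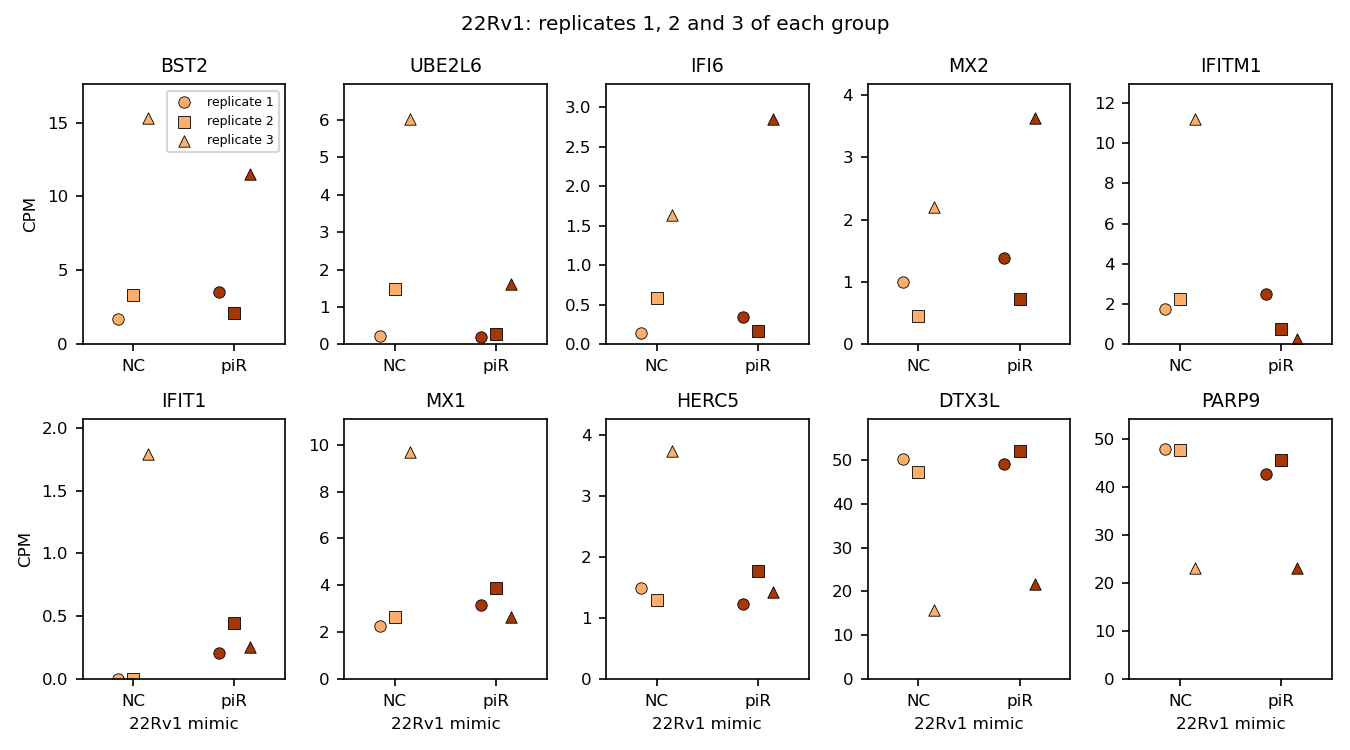
CPM of 10 members in the 3 replicates of each 22Rv1 group, with circles, squares and triangles for replicates 1, 2 and 3. BST2 reached 15.3 and 11.5 CPM in the replicate 3 libraries and at most 3.51 CPM in the other 4, whereas DTX3L and PARP9 were lowest in replicate 3 of both groups.

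The contrast among replicates was large for single genes. BST2, or tetherin, which holds budding virions at the cell surface, was at 1.73, 3.30 and 15.3 CPM in the 22Rv1 NC-mimic libraries and at 3.51, 2.12 and 11.5 CPM in the mimic libraries. UBE2L6, the enzyme that hands ISG15 on to its ligase, was at 0.228, 1.49 and 6.03 CPM and at 0.206, 0.279 and 1.62 CPM. In both genes replicate 3 was the highest of its group. IFITM1, which hinders the entry of enveloped viruses, was at 1.73, 2.26 and 11.2 CPM with NC-mimic and 2.48, 0.781 and 0.259 CPM with the mimic, so replicate 3 was the highest of one group and the lowest of the other. DTX3L, a ubiquitin ligase that partners PARP9, went the other way at 50.3, 47.3 and 15.8 CPM with NC-mimic and 49.0, 52.1 and 21.6 CPM with the mimic.

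The level of the members was set first by length-corrected TPM, the scale on which genes can be ranked against each other. In LNCaP with NC-mimic, ISG15, a ubiquitin-like protein that is attached to other proteins, was the highest member at a mean of 252 TPM, followed by IFITM3 at 215 TPM and IFI6 at 47.2 TPM. The libraries of ISG15 and IFITM3 overlapped, and all those of IFITM3 were above those of IFI6. In 22Rv1 with NC-mimic ISG15 was again highest at 369 TPM, IFITM3 was at 76.4 TPM, and IFI6 was at 1.80 TPM. The group means of 33 of the 39 members reached 1 TPM in LNCaP with NC-mimic and 34 with the mimic, against 24 in each 22Rv1 group. The members together summed to 865, 792 and 835 TPM in the LNCaP NC-mimic libraries and to 1075, 1096 and 938 TPM in the LNCaP mimic libraries, and these groups did not overlap. In 22Rv1 the sums were 600, 603 and 791 TPM with NC-mimic and 597, 614 and 656 TPM with the mimic, and those groups overlapped. XAF1, which antagonizes an inhibitor of apoptosis, and SAMD9L, a restriction factor, had no count in any 22Rv1 library.

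**Figure D2:**
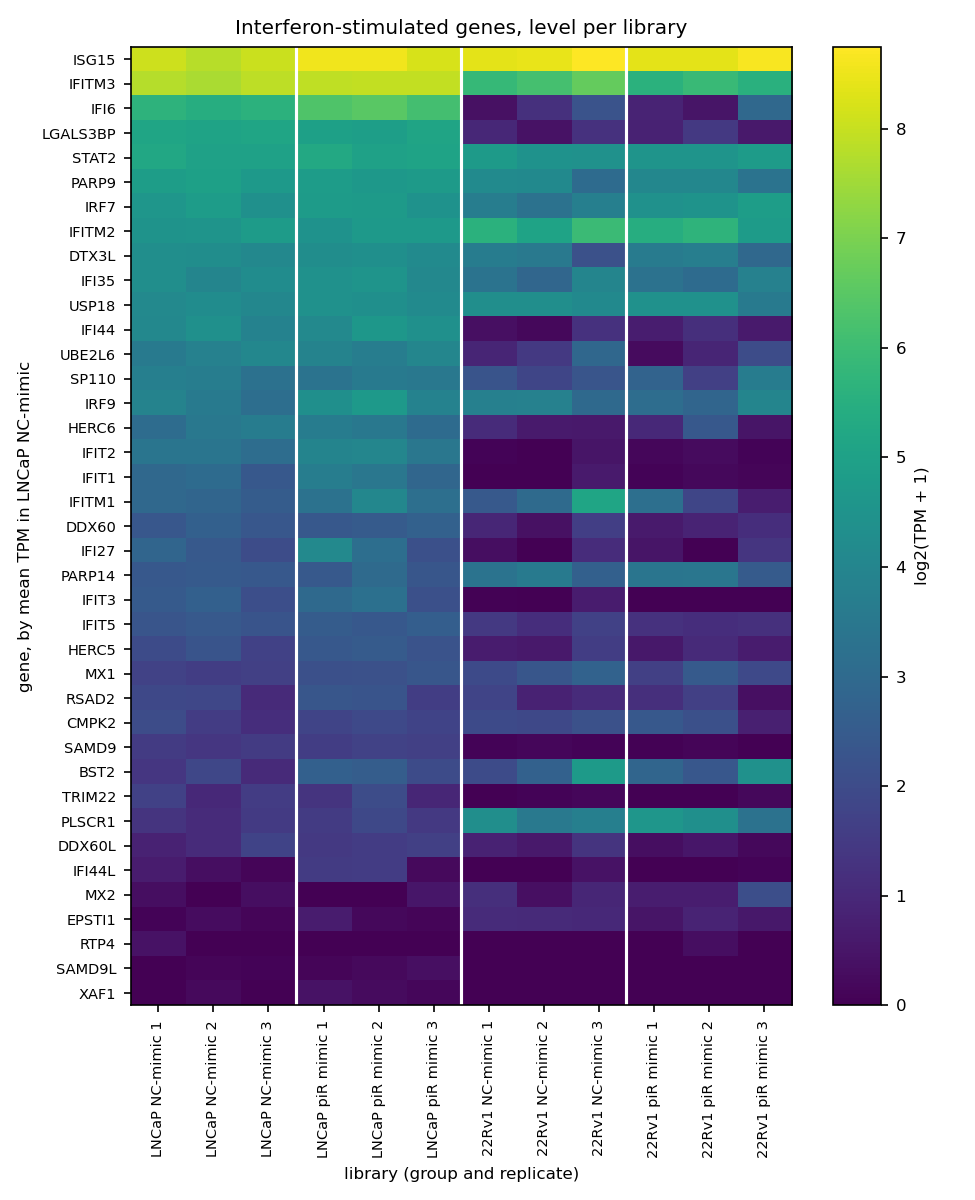
Colour gives log2(TPM + 1) of each member (rows, by mean TPM in LNCaP with NC-mimic) in each of the 12 libraries (columns, 3 per group). ISG15 is bright in all 12 columns, and IFI6, LGALS3BP, IFI44 and the IFIT genes are bright in LNCaP and dark in 22Rv1.

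The baseline comparison asked how the members differed between the lines when both carried NC-mimic. IFIT1, IFIT2, IFIT3, IFI44, SAMD9, TRIM22 and LGALS3BP were under 1 TPM in 22Rv1 and above it in LNCaP, and IFI6 was far lower in 22Rv1, while PLSCR1, EPSTI1, IFITM2 and BST2 were higher in 22Rv1. Of the 33 members at 1 TPM or more in LNCaP, 10 were under 1 TPM in 22Rv1, against 11.0% of all genes at that level. Of the 24 members at 1 TPM or more in 22Rv1, only EPSTI1 was under 1 TPM in LNCaP, against 14.9% of all genes. With edgeR's quasi-likelihood test, counting members with a Benjamini-Hochberg adjusted p below 0.05 whose log2 fold change exceeded 1 in size, 17 members were lower in 22Rv1 and 4 were higher among 34 tested, against 15.4% and 19.1% of 17497 genes. At any fold change, 28 of the 34 had an adjusted p below 0.05, beside 10226 of the 17497 genes.

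Some members passed the low-count filter through LNCaP alone and so had to differ. The same test was therefore run on genes with at least 10 counts in every library. Of the 22 members left, 7 were lower and 3 were higher in 22Rv1, against 12.5% and 13.6% of 13663 genes, and their median log2 fold change was -0.62 beside 0.00 for all genes. That filter also removes the members that 22Rv1 lacks. Filtered for mimic tests within each line, 25 members passed in both lines, 9 in LNCaP alone (IFI27, IFI44, IFI44L, IFI6, IFIT1, IFIT2, IFIT3, SAMD9 and TRIM22), 2 in 22Rv1 alone (EPSTI1 and MX2) and 3 in neither (RTP4, SAMD9L and XAF1).

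The IFIT proteins bind foreign RNA and block its translation. IFIT2 was at 22.4, 20.7 and 19.1 CPM in the LNCaP NC-mimic libraries and at 0.137, 0 and 0.897 CPM in the 22Rv1 NC-mimic libraries. IFIT1 was at 20.7, 22.3 and 13.8 CPM in LNCaP and at 0, 0 and 1.79 CPM in 22Rv1. IFIT3 was at 7.36, 8.62 and 5.48 CPM in LNCaP and at 0.0456, 0 and 0.978 CPM in 22Rv1. For all 3 genes every LNCaP library was above every 22Rv1 library, and the highest 22Rv1 value was that of replicate 3. The log2 fold change of 22Rv1 against LNCaP was -6.10 ± 0.70 (SE) for IFIT2 (adjusted p = 0.000173, edgeR), -5.24 ± 1.05 for IFIT1 (adjusted p = 0.00309) and -4.59 ± 0.96 for IFIT3 (adjusted p = 0.00378). These estimates rest on few counts in 22Rv1: 14 against 1148 for IFIT2, a ratio of 0.0136 with an exact 95% interval of 0.00738 to 0.0228 that covers counting error only. IFIT5 was lower too, by a log2 fold change of -1.18 ± 0.26 (adjusted p = 0.00509), which left the call without replicate 2 of the 22Rv1 NC-mimic group at -0.99. Without replicate 3 of that group IFIT3 was at -7.76, and IFIT1 then had no count left in 22Rv1.

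Outside this family the steepest difference was that of LGALS3BP, a secreted glycoprotein that binds galectins. It was at 42.0, 39.4 and 42.1 CPM in LNCaP and at 0.866, 0.388 and 0.571 CPM in 22Rv1, a log2 fold change of -6.02 ± 0.25 (adjusted p = 9.81e-07). IFI44, a cytoplasmic protein of little known function, was at 12.9, 14.9 and 10.1 CPM against 0.182, 0.0646 and 0.489 CPM (log2 fold change -5.76 ± 0.51, adjusted p = 4.54e-05). In both genes the 22Rv1 libraries were all under 1 CPM. IFI6, a small membrane protein that protects cells from apoptosis, was at 20.4, 17.6 and 20.5 CPM against 0.137, 0.582 and 1.63 CPM (log2 fold change -4.78 ± 0.61, adjusted p = 0.000298). SAMD9, an antiviral factor, was at 8.61, 7.74 and 8.71 CPM against 0.319, 0.323 and 0.326 CPM (log2 fold change -4.67 ± 0.32, adjusted p = 1.09e-05). TRIM22, a ubiquitin ligase, was at 2.59, 1.80 and 1.70 CPM against 0, 0.129 and 0.245 CPM (log2 fold change -4.16 ± 0.80, adjusted p = 0.00248). None of these genes overlapped between the lines, and each kept its call whichever library was left out.

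The regulators were less far apart. STAT2 and IRF9, both subunits of ISGF3, had log2 fold changes of -0.50 ± 0.09 and -0.26 ± 0.31 and did not pass the call. Of the 4 regulators, 3 had an adjusted p under 0.05 (edgeR) at any fold change. IRF7, the factor that amplifies interferon production, was lower at -1.27 ± 0.17 (adjusted p = 0.000391), and SP110, a nuclear body protein, at -1.44 ± 0.24 (adjusted p = 0.0013). Among the 5 genes of the ISG15 conjugation system, the ligase HERC5 (-1.71 ± 0.44) and its relative HERC6 (-3.52 ± 0.25) were lower, whereas ISG15 itself (0.61 ± 0.13) and USP18, the protease that removes it (0.20 ± 0.13), did not pass the call. UBE2L6 was at -2.01 ± 0.84 (adjusted p = 0.0708), with no overlap between the lines, and it was called lower without replicate 3 of both groups and with the replicate number as a block. The RNA helicase relatives DDX60 and DDX60L were lower at -3.45 ± 0.25 and -2.06 ± 0.51. The 3 genes of the PARP9, DTX3L and PARP14 group, which work in ADP-ribosylation, ranged from -0.99 to 0.90 and none passed. All 3 had an adjusted p under 0.05 (edgeR) and did not overlap between the lines. They missed the call on fold change alone. PARP14 was called higher without replicate 3 of both groups, and with the replicate number as a block DTX3L was called lower.

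The membrane proteins were mixed. IFITM3 was lower in 22Rv1 at a log2 fold change of -1.44 ± 0.20 (adjusted p = 0.000525), while its neighbour IFITM2 was higher at 1.21 ± 0.24 (adjusted p = 0.00293). RSEM divides reads among these close paralogs, so the split between them is uncertain. PLSCR1, a phospholipid scramblase, was at 16.5, 11.2 and 10.4 CPM in 22Rv1 and at 1.40, 0.872 and 1.40 CPM in LNCaP, a log2 fold change of 3.37 ± 0.33 (adjusted p = 6.97e-05). EPSTI1, named for its induction by stroma, was higher at 2.81 ± 0.53 (adjusted p = 0.00227) from 67 counts in 22Rv1 and 10 in LNCaP. BST2 was higher at 2.75 ± 0.82 (adjusted p = 0.0197), with the largest 22Rv1 value in replicate 3, and lost the call without replicate 1 or replicate 3 of the LNCaP NC-mimic group. Its log2 fold change ran from 1.32 to 3.22 over the 6 fits that left out a library. Without replicate 3 of both groups, 4 members were higher and 19 lower, and BST2 was not among them.

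The same comparison in the mimic libraries gave 18 members lower and 3 higher in 22Rv1 among 35 tested, against 13.9% and 18.8% of 17283 genes. These libraries are not those of the NC-mimic comparison. Of the 17 members lower with NC-mimic, 15 were lower here too, which is 88.2% of that list and 83.3% of the list with the mimic. PLSCR1 and EPSTI1 were higher in both, which is 50% of the 4 members and 66.7% of the 3. Among genes with at least 10 counts in every library, 7 of 20 members were lower and 1 was higher, against 11.1% and 13.3% of 13525 genes. At the 1 TPM level, 11 of 34 LNCaP members were under 1 TPM in 22Rv1, against 10.4% of all genes, and 1 of 24 went the other way (MX2), against 15.7%. IFIT3 had 0 counts in the 3 libraries of 22Rv1 with the mimic and 484 counts in LNCaP, which makes it at least 160-fold lower when 3 counts over the group are taken as the limit. UBE2L6 was lower at -4.03 ± 0.71 (adjusted p = 0.00317), and MX2, a GTPase that blocks nuclear entry of viral genomes, was higher at 4.43 ± 1.16 (adjusted p = 0.0167) from 89 counts against 4. Without replicate 1 or replicate 2 of LNCaP with the mimic, MX2 was not called. SP110 (-1.09 ± 0.35) and RSAD2 (-1.68 ± 0.57) lost their calls in 5 of the 6 fits that left out a library, and IFI35 in 2 of 6. Without replicate 3 of both groups, 21 members were lower and 4 were higher.

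**Figure D3:**
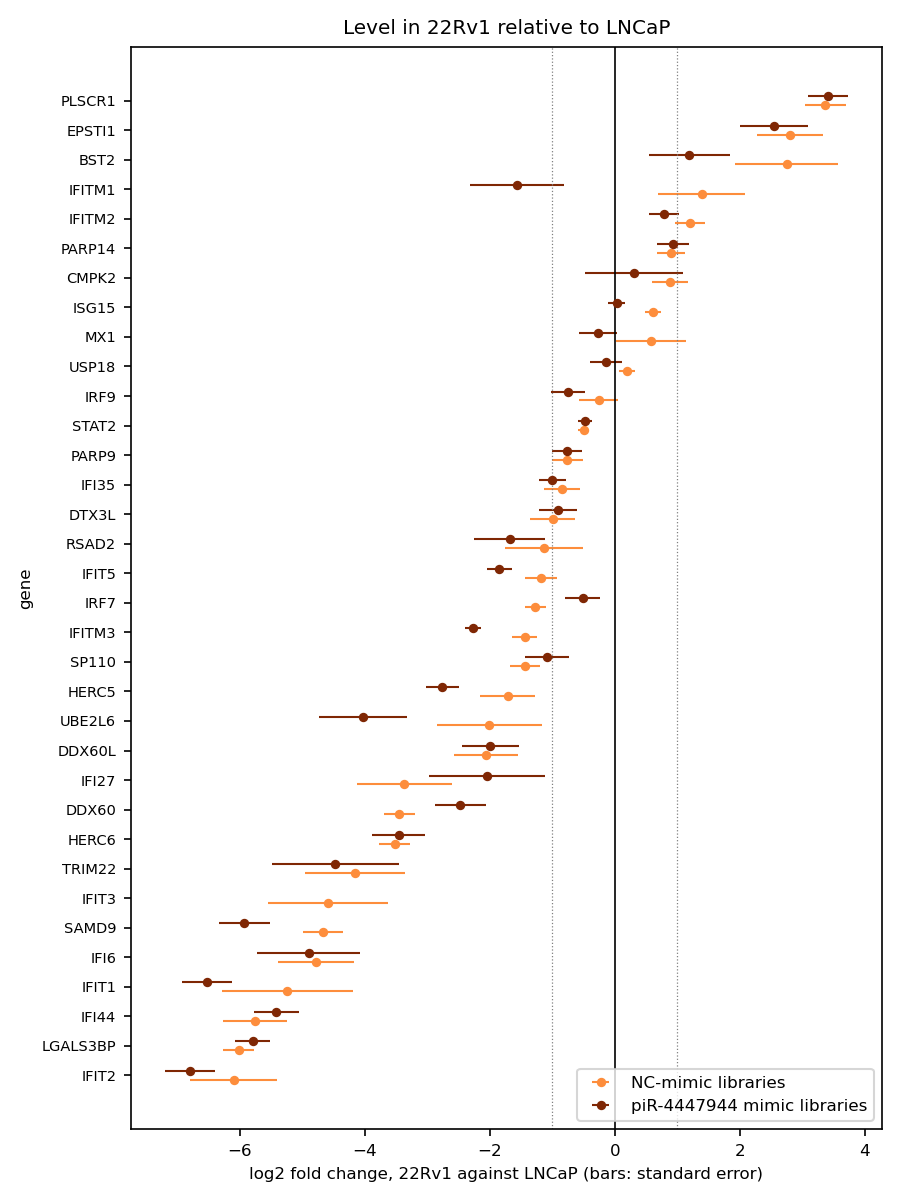
Log2 fold change of 22Rv1 against LNCaP with its standard error for the 34 members tested with NC-mimic (light points) and in the mimic libraries (dark points), with dotted lines at -1 and 1. IFIT2, LGALS3BP, IFI44 and IFIT1 lie at the lower end near -5 to -7 and PLSCR1 at the upper end near 3.4, and IFIT3 has no dark point because it had no count in 22Rv1 with the mimic.

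The study sequenced mRNA of these cells as one of its steps, to find target genes of piR-4447944. In LNCaP 12 members were higher with the mimic and none was lower. The cut-offs were those of the study, an unadjusted p under 0.05 with a log2 fold change over 0.2 in size, but here on edgeR's p and unshrunken fold changes. With DESeq2 and shrunken fold changes, the form the study used, only 2 of 29073 genes (0.00688%) were called in LNCaP. Both were members (IFI6 and ISG15), and the members' median was 0.03. The study reported more genes than that as changed in both lines, so this fit did not reproduce its result. By the edgeR rule 1.38% of 16244 genes were higher and 0.843% lower, and 34 members were tested. The 12 were IFI44L, BST2, IFITM1, IFI6, IRF9, IFIT1, IFIT2, HERC5, ISG15, IFI44, SAMD9 and IFITM3. The median log2 fold change of the members was 0.23, beside 0.00 for all genes, and 29 of the 34 were above 0 beside 49% of all genes. CPM values did not overlap between the groups for 10 of the 39 members, all higher with the mimic, against 4.11% of genes. No member passed an adjusted p of 0.05 with edgeR, and the smallest was 0.193 for IFI6. With DESeq2 11 members had a p under 0.05, of which 9 had a shrunken log2 fold change within 0.2, and IFI6 (adjusted p = 0.000242) and ISG15 (adjusted p = 0.0167) passed after adjustment. The adjusted p of IFI6 ranged from 9.63e-08 to 1 over 16 alternative settings and that of ISG15 from 4.7e-06 to 1.

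**Figure D4:**
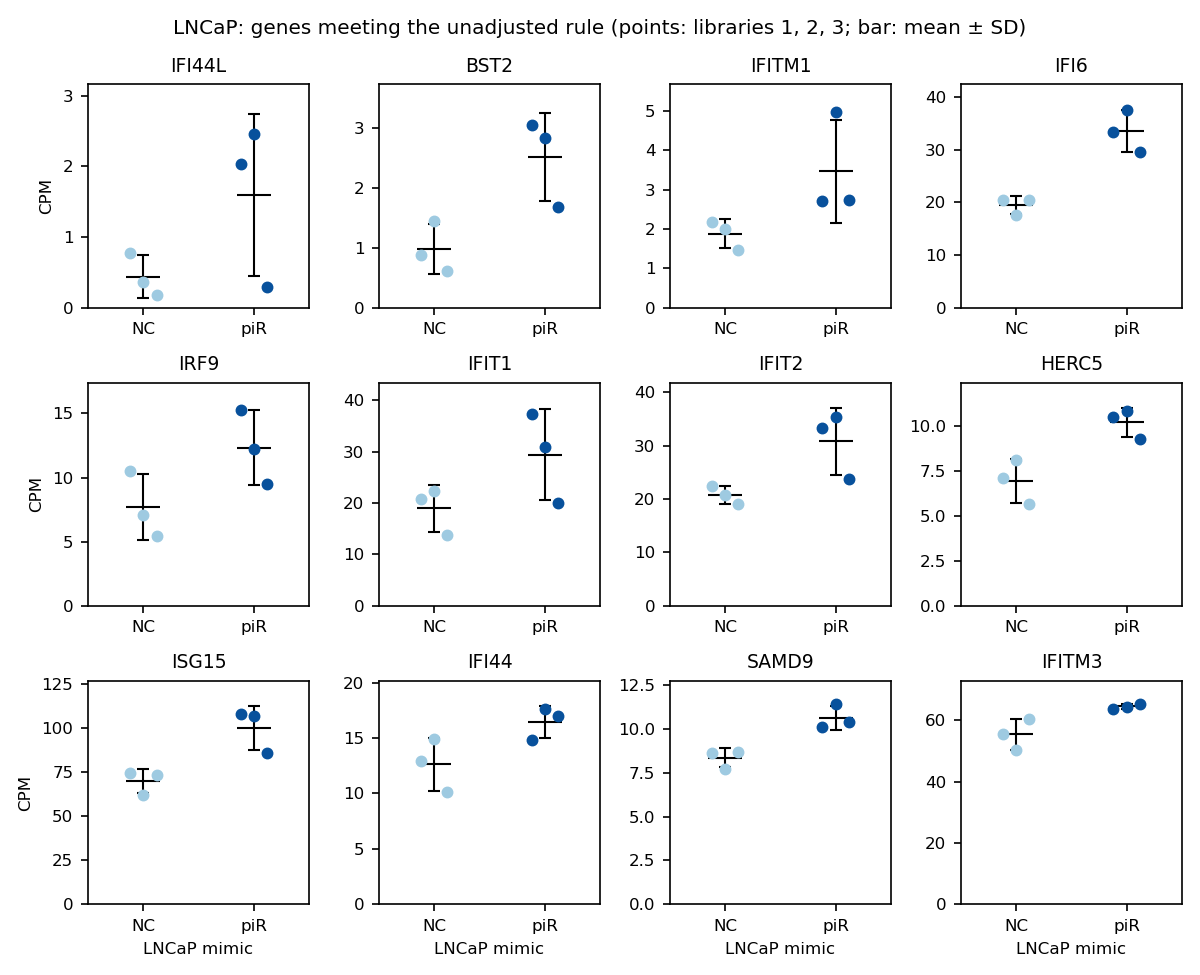
CPM of the 12 members that met the unadjusted rule in LNCaP, with 1 point per library and the mean ± SD of 3 libraries for NC-mimic (NC) and piR-4447944 mimic (piR). The groups are apart for 8 of the 12 genes, and IFI44L, IRF9, IFIT1 and IFI44 overlap.

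IFI6 was at 20.4, 17.6 and 20.5 CPM with NC-mimic and at 33.4, 37.5 and 29.5 CPM with the mimic, a log2 fold change of 0.78 ± 0.11 (adjusted p = 0.193, edgeR). All 3 mimic libraries stood above all 3 controls. ISG15 was at 74.4, 62.3 and 73.3 CPM and at 108, 107 and 85.8 CPM, a log2 fold change of 0.51 ± 0.10 (adjusted p = 0.999, edgeR). HERC5, which joins ISG15 to new proteins, was at 7.10, 8.10 and 5.66 CPM and at 10.5, 10.8 and 9.28 CPM (0.54 ± 0.17). Neither gene overlapped between the groups, and the other genes of the conjugation system, UBE2L6 (0.22 ± 0.17), USP18 (0.21 ± 0.11) and HERC6 (0.08 ± 0.13), did not meet the rule.

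BST2 was at 0.881, 1.44 and 0.609 CPM with NC-mimic and at 3.04, 2.83 and 1.68 CPM with the mimic, a log2 fold change of 1.34 ± 0.40. IFITM1 was at 2.18, 2.00 and 1.46 CPM and at 2.7, 4.98 and 2.73 CPM (0.88 ± 0.32), and IFITM3 at 55.4, 50.4 and 60.5 CPM and at 63.8, 64.5 and 65.5 CPM (0.22 ± 0.08). These 3 membrane proteins did not overlap between the groups. IFITM2 (0.13 ± 0.17) and PLSCR1 (0.14 ± 0.37) did not meet the rule.

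Of the IFIT genes, IFIT2 was at 22.4, 20.7 and 19.1 CPM with NC-mimic and at 33.4, 35.4 and 23.7 CPM with the mimic (0.57 ± 0.14), and the groups were apart. IFIT1 went from 20.7, 22.3 and 13.8 CPM to 37.4, 30.9 and 20 CPM (0.62 ± 0.21), where the lowest mimic library lay below 2 of the controls. IFIT3 (0.49 ± 0.28) and IFIT5 (0.21 ± 0.13) did not meet the rule.

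IRF9 was at 10.5, 7.08 and 5.48 CPM with NC-mimic and at 15.3, 12.2 and 9.46 CPM with the mimic (0.67 ± 0.23), and replicate 3 was the lowest in both groups. IFI44 was at 12.9, 14.9 and 10.1 CPM and at 14.8, 17.6 and 17.0 CPM (0.38 ± 0.15). SAMD9 was at 8.61, 7.74 and 8.71 CPM and at 10.1, 11.4 and 10.4 CPM (0.35 ± 0.14). Of these 3 genes SAMD9 alone did not overlap between the groups. IFI44L, a relative of IFI44, had the largest log2 fold change at 1.80 ± 0.68 but was low throughout, at 0.778, 0.359 and 0.183 CPM with NC-mimic and at 2.03, 2.46 and 0.29 CPM with the mimic. Its mimic replicate 3 was within the range of the controls.

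The other members tested did not meet the rule. STAT2 (0.03 ± 0.07), IRF7 (0.11 ± 0.14) and SP110 (-0.04 ± 0.14) among the regulators, PARP9 (-0.08 ± 0.09), PARP14 (-0.01 ± 0.10) and DTX3L (0.04 ± 0.08), and LGALS3BP (-0.03 ± 0.08) were near 0 with small errors. CMPK2, a mitochondrial nucleotide kinase, and DDX60 did not overlap between the groups but had p-values above 0.05 at log2 fold changes of 0.53 ± 0.26 and 0.24 ± 0.13. RTP4, MX2, XAF1, SAMD9L and EPSTI1 were under the low-count filter, with at most 18 counts over a group. By promoter, 10 of the 22 tested members with a response element and 1 of the 7 tested without one (IRF9) met the rule, while IFIT2 had no window. All were higher, against 1.38% of all genes higher and 0.843% lower, and 7 genes are few for a comparison. In 22Rv1 none of 16 with the element was higher and 1 was lower, and none of 7 without it was called. Over all genes 0.799% were higher and 0.681% lower there. Between the lines with NC-mimic, 12 of 22 with the element and 2 of 7 without it were lower in 22Rv1, against 15.4% of all genes. With the mimic these were 12 of 22 and 4 of 7, against 13.9%. Of the members with the element, IFI27, IFI44, IFI44L, IFI6, IFIT1, IFIT3 and SAMD9 passed the low-count filter within LNCaP alone. These counts therefore do not compare the classes, and the split was not made on genes with at least 10 counts in every library. Of those with the element, 3 of 22 were higher in 22Rv1 with NC-mimic and 2 of 22 with the mimic. These are no larger shares than the 19.1% and 18.8% of all genes. None of the 7 without it was higher, too few to compare, and IFITM2, higher with NC-mimic, had no window.

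How firmly each call stood varied. BST2, HERC5, IFI6, IFIT2 and ISG15 met the rule whichever of the 6 libraries was left out, the others lost it in 1 to 4 of the 6 fits, and the count of members called ran from 8 to 15. The lowest count came without replicate 2 of the mimic group. Without replicate 3 of both groups 14 members were called beside 929 of all genes, and with the replicate number as a block 15 beside 508. The main fit called 12 beside 361, so the calls over all genes grew more than those of the members. When the spread was estimated over all 12 libraries, 22Rv1 included, only ISG15 and IRF9 were called, beside 168 of all genes.

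In 22Rv1 the mimic comparison gave 1 member higher and 1 lower of 27 tested, against 0.799% and 0.681% of 16898 genes, while DESeq2 with shrunken fold changes called 4 (IRF7, DDX60, IFITM3 and IFITM1) against 0.811%, and the median log2 fold change was -0.04 beside -0.01 for all genes. IRF7 was at 8.20, 7.17 and 7.91 CPM with NC-mimic and at 11.1, 11.7 and 19.8 CPM with the mimic, a log2 fold change of 0.86 ± 0.28 (adjusted p = 0.999, edgeR). The groups did not overlap. IFITM3 was at 15.4, 19.4 and 27.3 CPM and at 12.4, 15.3 and 12.3 CPM (-0.64 ± 0.26, adjusted p = 0.999, edgeR), with the highest mimic library just under the lowest control. Without replicate 3 of both groups IRF7 alone was called by edgeR (log2 fold change 0.58). In that fit IFITM3 was at -0.31, IFITM1 at -0.29 and DDX60 at 0.90. No member was called without replicate 2 of the NC-mimic group, and IFITM3 lost its call in 5 of the 6 fits that left out a library. With the replicate number as a block, IRF7 (0.82 ± 0.25) and IFITM3 (-0.60 ± 0.23) stayed called and UBE2L6 was called as well, at a log2 fold change of -1.66 ± 0.68 (adjusted p = 0.869, edgeR).

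By the unadjusted rule IFITM3 was thus higher with the mimic in LNCaP and lower with it in 22Rv1. Neither call held in every fit that left out a library. In LNCaP it was lost without replicate 1 or replicate 2 of the NC-mimic group. Other members that met the rule in LNCaP did not meet it or were not tested in 22Rv1. BST2 was at -0.26 ± 0.91, HERC5 at -0.55 ± 0.56 and IFITM1 at -2.10 ± 1.00, while ISG15 (-0.09 ± 0.16) and IRF9 (0.17 ± 0.30) were measured more closely. The IFITM1 value rested largely on replicate 3, and without that replicate of both groups it was at -0.29 ± 0.65. IFI6, IFIT1, IFIT2, IFI44, IFI44L and SAMD9 were under the filter in 22Rv1. Their pooled counts there were low, as for IFIT1 with 15 counts in the mimic group and 22 in the control group, a ratio of 0.707 with an exact 95% interval of 0.341 to 1.43. IFIT3 had 0 counts with the mimic and 13 with NC-mimic, most of them in replicate 3.

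**Figure D5:**
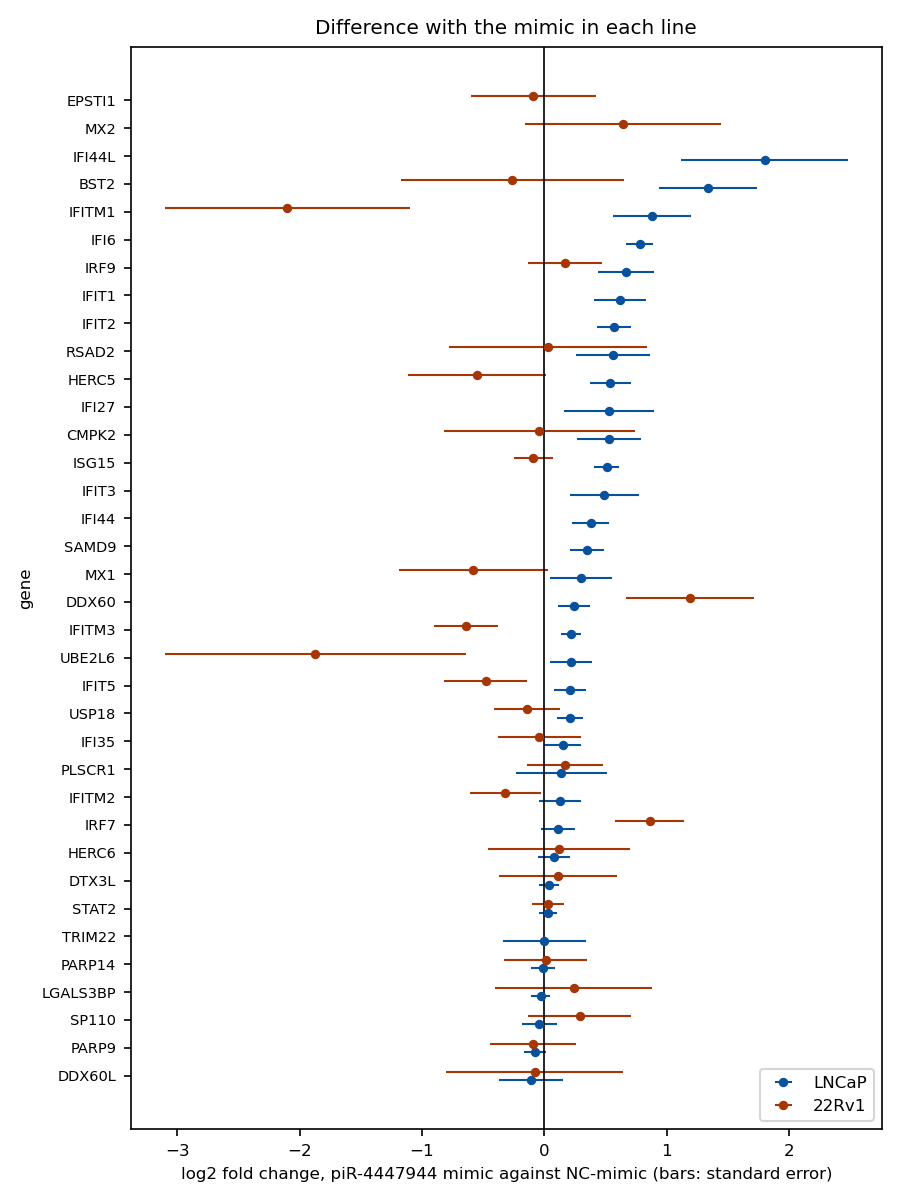
Log2 fold change of piR-4447944 mimic against NC-mimic with its standard error, for the members tested in LNCaP (blue) or 22Rv1 (brown). The LNCaP points run from -0.11 to 1.80 with short bars, and the 22Rv1 points run from -2.10 to 1.19 with longer bars and most of them cross 0.

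The difference between the lines in the effect of the mimic was tested as an interaction over all 12 libraries. By the unadjusted rule 5 of 36 members had a lower effect in 22Rv1 (ISG15, IFITM3, IFITM1, SAMD9 and IFIT3) and IRF7 a higher one, against 1.54% and 1.71% of 18720 genes. SAMD9 and IFIT3 entered this test through LNCaP, where they are high, and were under the filter within 22Rv1. With at least 10 counts in every library, 3 of 20 members had a lower and 1 a higher effect in 22Rv1, against 1.14% and 1.42% of genes. The smallest adjusted p over all genes was 0.665, and that of each of these members was 1 (edgeR). ISG15 differed by -0.60 ± 0.20 on the log2 scale and IFITM3 by -0.85 ± 0.25, and both were called whichever of the 12 libraries was left out. For BST2 the difference was -1.59 ± 1.12 and for HERC5 -1.08 ± 0.52, and neither met the rule. With the replicate number as a block, BST2 and UBE2L6 were called and IFITM1 was not. For IFI6 it was -0.13 ± 1.14, so its effects in the lines cannot be told apart at this depth.

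The pathway upstream of the members was read from lists written with earlier results of these data known. None of 19 interferon genes was high enough to test, with 6 and 14 counts in all in LNCaP with NC-mimic and with the mimic, and 5 and 6 in 22Rv1. None of the receptor, kinase and STAT genes met the rule with the mimic, of 14 tested in LNCaP and 16 in 22Rv1. JAK1 was at 10.1, 11.9 and 9.56 CPM and 11.6, 10.3 and 12.4 CPM in the LNCaP groups and at 8.25, 8.14 and 12.3 CPM in 22Rv1 with NC-mimic. In 22Rv1 with the mimic it was at 8.11, 6.75 and 29.8 CPM, with replicate 3 above every other library of the series.

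Between the lines with NC-mimic, 2 of 15 tested genes of that list were higher in 22Rv1 and 2 were lower, no larger shares than the 19.1% and 15.4% of all genes. IFNLR1, the receptor chain for type III interferon, had no count in any LNCaP library and 843 counts in 22Rv1 with NC-mimic. IL10RB, its partner chain, was also higher in 22Rv1 (1.11 ± 0.19), and JAK2 (-1.97 ± 0.18) and STAT3 (-1.73 ± 0.16) were lower. Of the genes that sense foreign RNA or pass the signal on, 5 of 15 were lower in 22Rv1 and none was higher, beside the same 15.4% and 19.1% of all genes. With at least 10 counts in every library 4 of 14 were lower and none was higher, against 12.5% and 13.6% of genes. The 5 lower genes included DDX58, which encodes the sensor RIG-I (-1.59 ± 0.17), IFIH1, which encodes the sensor MDA5 (-1.37 ± 0.19), and TLR3 (-2.88 ± 0.38). In LNCaP with the mimic DDX58 (0.27 ± 0.09), the ligase RNF135 (0.22 ± 0.10) and the transcription factor IRF3 (0.23 ± 0.09) were higher and IFIH1 (-0.28 ± 0.13) was lower by the unadjusted rule, 4 of 15 tested. Over all genes 1.38% were higher and 0.843% lower by that rule. In 22Rv1 none of 15 met it.

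A further list of 41 interferon-stimulated genes outside the 39 members, 6 of which also stand in the lists above was also read. In LNCaP with the mimic 3 of 35 tested were higher (OAS3, OASL and HELZ2) and IFIH1 was lower, against 1.38% and 0.843% of all genes. In 22Rv1 none of 27 met the rule. Between the lines with NC-mimic, 20 of 38 were lower in 22Rv1 and 3 were higher (SLFN11, PHF11 and LAMP3), against 15.4% and 19.1% of all genes. LAMP3 was at 1.96, 0.582 and 14.0 CPM in 22Rv1 with NC-mimic, highest in replicate 3. Its call was not examined without that replicate. Some of these passed the filter through LNCaP alone, and with at least 10 counts in every library 9 of 24 were lower and none was higher, against 12.5% and 13.6%. CXCL10, a chemokine, and APOL6 had no count in any 22Rv1 library and 112 and 304 counts in LNCaP with NC-mimic. OASL, a relative of the enzymes that make 2-5A, was at 22.9, 22.5 and 14.8 CPM in LNCaP and at 0, 0 and 0.815 CPM in 22Rv1.

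Some values may hold reads of a neighbour. By the annotation 16 of the 39 members share exon bases with another gene, 14 of them with a gene on the other strand, and the strand setting of the counting is not given in the sources used here. CMPK2 overlaps RSAD2, PARP9 overlaps DTX3L, IFIT2 and IFIT3 overlap LIPA, and MX1 overlaps TMPRSS2, an androgen-regulated gene of prostate cells.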

How the data were processed

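Total RNA was extracted with the miRNeasy kit and libraries were made by Novogene, per the labels. The authors aligned reads to hg38 with STAR 2.7.1a and estimated expression with RSEM 1.3.0, and deposited 1 table per library with expected counts and TPM per gene. The annotation release, trimming, strand setting and mimic dose are not given in the sources used here. The authors' own comparison used DESeq2 1.34.0.

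The deposited expected counts, which need not be whole, were rounded, filtered with filterByExpr, scaled by TMM and tested with edgeR 4.0.16 (quasi-likelihood, R 4.3.3), each comparison on its own 6 libraries and the interaction on all 12. Library totals ran from 12161091 to 22179601, and intervals and limits cover counting error only. CPM was computed here with TMM factors over the 12 libraries, and the deposited TPM, which corrects for gene length, was used to rank genes. A mimic call was an unadjusted edgeR p under 0.05 with an unshrunken log2 fold change over 0.2 in size (the study set these cut-offs on DESeq2 p-values with shrunken fold changes), and a line call an adjusted p under 0.05 with an absolute log2 fold change over 1. 3 libraries against 3 cannot go below 0.1 in an exact permutation test. The fits were first tested on simulated data. Members and lists were chosen with earlier results of these data known. Genes printed library by library were the members called with the mimic, the 8 called members furthest apart between the lines, JAK1, and the members that describe replicate 3, which were added after their values were seen. PLSCR1, LAMP3 and OASL were printed as well, outside these rules. 1 further gene set for printing is not reported here. Alternatives were other size factors, count filters, DESeq2 1.42.0, limma 3.58.1 on log2(TPM + 1) or log2(TPM + 0.1), a fit over all 12 libraries, a replicate block and leaving out libraries. The filter of at least 10 counts on the pathway lists was added after seeing the data.

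Deviations of same-numbered libraries of the 22Rv1 groups had correlations of 0.198, 0.167 and 0.355. Replicates 1 and 2 also correlated across numbers, at 0.191 (mimic 2 with control 1) and 0.117 (mimic 1 with control 2). Only replicate 3 stood apart from them, at -0.277 to -0.199, so the values do not pair replicates 1 and 2 by number. The main fits had no block, and fits with the replicate number as a block are given beside them. In LNCaP the same-numbered values were 0.0211, 0.00504 and 0.189, and between the lines they were at most 0.104. The labels do not say whether the numbers are pairs.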

Additional observations from a re-analysis of the deposited data

Results flagged for a closer look

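For 6 members the effect of the mimic differed between the lines by the unadjusted rule in the interaction test of edgeR, given here as 22Rv1 minus LNCaP on the log2 scale. The adjusted p was 1 for each. The difference was -0.60 for ISG15 and -0.85 for IFITM3, and both were called in 12 of 12 fits that left out a library. It was -2.98 for IFITM1, which was not called without replicate 3 of the 22Rv1 NC-mimic group, and 0.75 for IRF7, which was called in 3 of 12. It was -1.27 for SAMD9, called in 9 of 12, with 16 and 8 counts in the 22Rv1 groups. For IFIT3 it was -5.83, which rests on 13 and 0 counts in 22Rv1 and is no bound. Without replicate 3 of all groups ISG15 and IFITM3 were called among these 6.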

How the results depend on the processing

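No called member changed direction under any alternative run. Leaving out 1 library gave 8 to 15 members called with the mimic in LNCaP (median log2 fold change 0.23 to 0.27), 0 to 3 in 22Rv1 (-0.17 to 0.03, a median that crossed 0), 20 to 24 between the lines with NC-mimic (-1.34 to -1.14), 17 to 24 with the mimic (-1.86 to -1.22) and 4 to 8 in the interaction (-0.47 to -0.13). In LNCaP 2 members were called by DESeq2 with shrinkage (median 0.03), 7 by limma at each setting and 2 with all 12 libraries. In 22Rv1 4 were called by DESeq2, 5 with all 12 libraries and 1 without replicate 3. With at least 10 counts in every library, 10 members were called between the lines with NC-mimic (median -0.62) and 8 with the mimic (-0.73). Without a filter the medians were -1.48 and -1.70, with limma on log2(TPM + 1) -1.02 and -1.11, without its filter -0.78 and -0.99, and on log2(TPM + 0.1) -1.72 with the mimic. The median of the interaction was -0.50 with limma on log2(TPM + 0.1) and -0.03 without replicate 3. The causes of these shifts were not tested, apart from the fewer genes that stricter filters test.

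With the replicate number as a block, 15 members were called in LNCaP, 3 in 22Rv1, 23 between the lines with NC-mimic, 22 with the mimic (median -1.85) and 7 in the interaction. Over all genes the block called 508, 420, 5912, 5362 and 852 in the same order.

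Over all genes, 361 were called in LNCaP, against 2 by DESeq2, 168 with all 12 libraries, 560 to 895 by limma, 891 without a filter, 929 without replicate 3 and 1008 without replicate 3 of the NC-mimic group. In 22Rv1 250 were called, against 420 with the block, 449 to 772 by limma, 532 without a filter, 781 without replicate 3 and 1232 with all 12 libraries. Between the lines 6043 and 5660 were called, against 3561 and 3297 with at least 10 counts. In the interaction 610 were called, against 338 with at least 10 counts, 1035 without a filter, 1152 by limma without a filter, 1333 without replicate 3 and up to 1041 without 1 library.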
